A study of Mus musculus with 7 samples.

Results

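Glucose uptake, glycolysis, gluconeogenesis, fructose use and glycogen storage were followed through 49 named genes, taken for the step that their products carry out. The list was drawn up with earlier results of these data known. Levels were obtained for 46 of them, out of 18193 genes read on the arrays, and Gpi1, Pfkfb1 and Eno1 were not analysed here. Each gene was read by the probe set with its highest mean level, and 22 of the 46 have further probe sets, 46 in all. For 11 of the 22 at least 1 of these pointed the other way in iHepSCs against MEFs and for 4 in pHeps against MEFs, and of these only Pck1 and Pklr had an opposing probe set that passed the test. The study made induced hepatic stem cells (iHepSCs) from mouse embryonic fibroblasts (MEFs) with lentiviruses carrying Oct4 and Hnf4a. It profiled 4 MEF arrays, 2 iHepSC arrays, of which replicate 1 was at passage 3 (P3) and replicate 2 at passage 20 (P20), and 1 array of primary hepatocytes (pHeps) from male 6-week-old mice. All cells came from mice labelled C57BL/6, C57BL/6J in the methods, and only the iHepSCs are labelled as reprogrammed. MEFs grew in DMEM with serum and iHepSCs in a William's E hepatocyte medium (HEP). For pHeps the labels name HEP as well, while the methods have RNA taken after a few hours of plating in Williams' medium E with antibiotics and L-glutamine, so that medium and cell type cannot be told apart in either comparison with MEFs. The study chose the clone iHepSC-C3 for its detailed work, but the array labels name no clone. Nothing says that arrays of a group came from separate cultures or animals, so that p-values measure only the spread between these arrays, which may be technical. For iHepSCs this spread also includes any difference between P3 and P20, which were fitted as replicates of 1 group. Levels are log2 values, on which a difference of 1 is a 2-fold change.

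In glycolysis, glucose enters the cell through a transporter, is trapped by a hexokinase and is split to pyruvate, which becomes lactate or enters the mitochondrion. Hepatocytes can also run the path backwards (gluconeogenesis), release free glucose into the blood, take in fructose and hold a large store of glycogen. They do so with liver forms of several enzymes, among them the transporter GLUT2 (Slc2a2), fructose bisphosphatase 1 (Fbp1) and glycogen phosphorylase L (Pygl), while most other cells use ubiquitous or muscle forms of the same steps.

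The labels were first set against markers of the cell types. The mean level of 8 hepatocyte markers lay between 5.82 and 6.01 on the MEF arrays, at 9.23 and 9.50 on the iHepSC arrays and at 12.7 on the pHep array. Among them Ass1, Tat and Serpina1b did not pass the test in iHepSCs, and Ass1 did not pass it in pHeps. All 7 fibroblast markers measured fell in both groups. In pHeps 8 of 10 macrophage and Kupffer cell markers were higher, with a mean level of 10.1 against 6.87 to 7.94 in MEFs, and in iHepSCs the 3 cholangiocyte markers measured were higher, with 10.9 and 11.3 against 5.84 to 7.30. Of the 6 endothelial markers, 2 were higher in iHepSCs and 1 was lower in pHeps, and neither of 2 red blood cell markers passed the test in any comparison. The part of these other cell types in the results below was not tested, and in bulk RNA fewer cells of a type cannot be told apart from less RNA per cell. MEF replicate 1 stood apart from the other MEF arrays, with a correlation of 0.960 to 0.961 over all genes against at least 0.997 among replicates 2 to 4. The iHepSC arrays correlated at 0.996.

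In iHepSCs, members of glucose uptake, lactate transport and pyruvate control had the largest rises past the test. GLUT2, the lactate transporter Slc16a1, pyruvate dehydrogenase kinase 1 (Pdk1) and the regulator enzyme Pfkfb2 rose by 2.41 to 3.10 on the log2 scale, and the kinases Pdk3 and Pdk4, lactate dehydrogenase B (Ldhb), muscle enolase (Eno3), platelet phosphofructokinase (Pfkp) and Pygl fell. Against MEFs, 22 of the 46 members passed the test (limma, adjusted p under 0.05), 15 of them higher and 7 lower, and 24 did not, where 31.6% of all genes passed it, 18.2% higher and 13.4% lower. The median difference of the members was 0.17, beside 0.01 over all genes. When arrays were centred on Gapdh, itself an enzyme of glycolysis, 20 members were higher and 6 lower (4557 and 1053 of all genes, against 3310 and 2446). Both iHepSC arrays lay above all 4 MEF arrays for 19 members and below all of them for 9, where 26.9% and 23.7% of all genes did so.

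In pHeps, the liver forms led. GLUT2 was higher by 8.88, Pygl by 5.31, glucose-6-phosphatase (G6pc) by 4.98 and Fbp1 by 4.81, while the muscle enolase Eno3, the neuronal transporter Slc2a3 and hexokinase 2 (Hk2) fell. Against MEFs, 20 members passed the test, 12 of them higher and 8 lower, and 26 did not, where 30.3% of all genes passed it, 14.8% higher and 15.5% lower. Their median difference was -0.04, beside -0.13 over all genes. With a single pHep array, its spread is assumed to be that of the other groups.

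**Figure D1:**
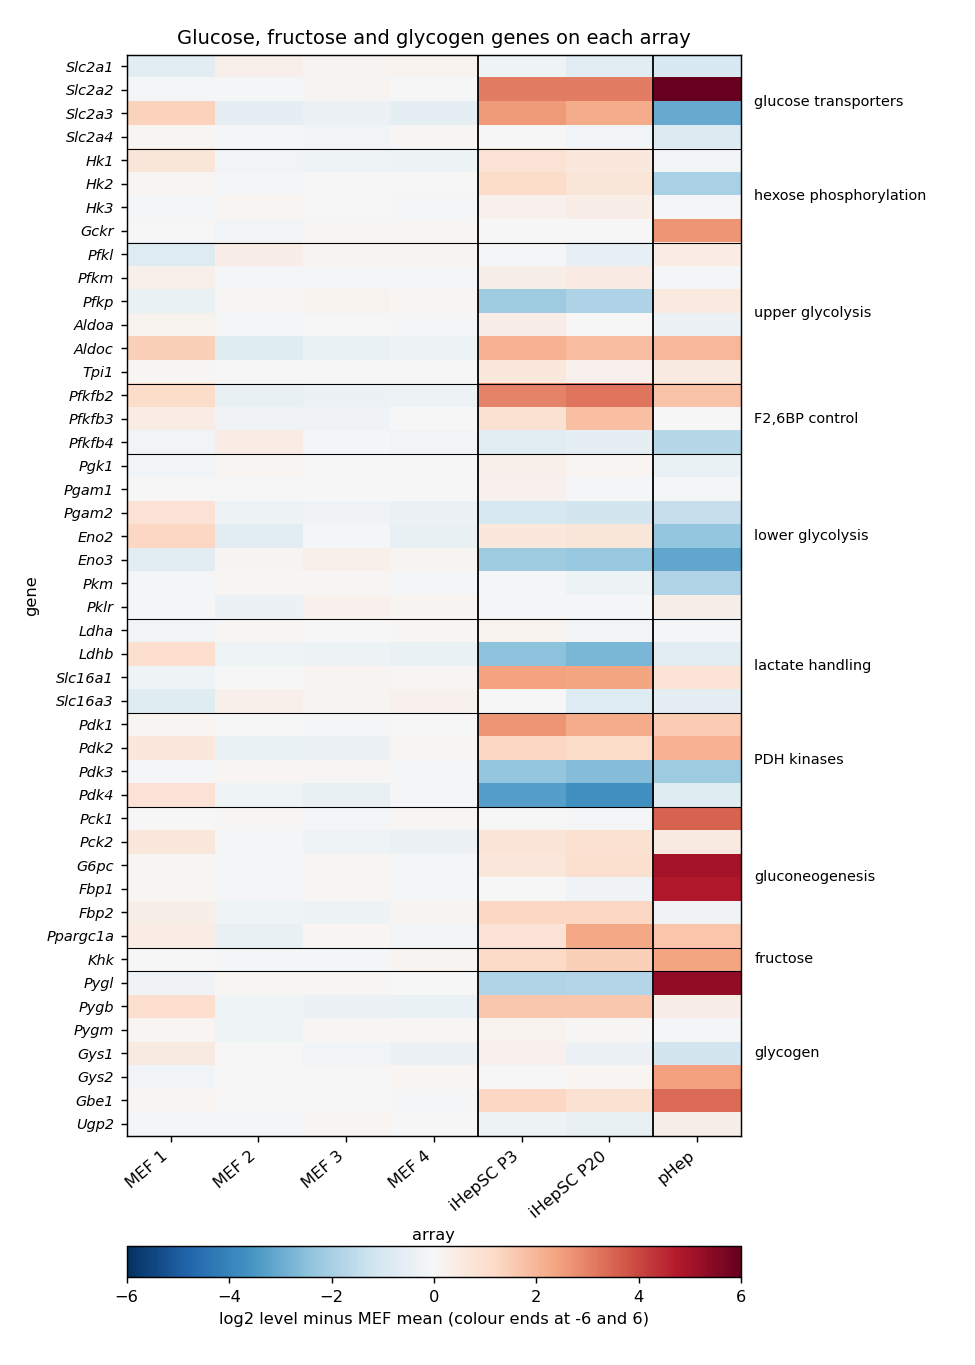
Level of each of the 46 members (rows, ordered by pathway step) on each of the 7 arrays (columns) as log2 level minus the mean of the 4 MEF arrays, with red above and blue below that mean and the colour scale ending at -6 and 6. The pHep column is deep red for Slc2a2, G6pc, Fbp1 and Pygl, which are pale or blue in the iHepSC columns apart from Slc2a2, and MEF 1 differs in colour from the other MEF columns for members such as Slc2a3, Aldoc, Pfkfb2 and Eno2.

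Among the 9 liver forms measured, 8 were higher in pHeps and none was lower, while in iHepSCs 3 were higher and 1 was lower. These counts and the medians below read Pklr by its brightest probe set, called in neither group. Its dimmer ones passed the test upwards in both. Over all genes 14.8% were higher and 15.5% lower in pHeps, and 18.2% higher and 13.4% lower in iHepSCs. The median difference of the liver forms from MEFs was 3.53 in pHeps and 0.01 in iHepSCs. Pfkl, the liver type of phosphofructokinase, is found in most tissues and is not counted among them, and it passed the test in neither group. Slc2a2 encodes GLUT2, the low-affinity transporter through which hepatocytes take up and release glucose. Its level was 4.02, 4.09, 4.33 and 4.16 on the MEF arrays, 7.28 (P3) and 7.21 (P20) in iHepSCs and 13.03 in pHeps. All iHepSC values lay above all MEF values, and the pHep value stood far above both. The MEF values were dim, below the lower quartile of all probe sets, which lay between 4.88 and 4.95 on the 7 arrays, and no detection calls were used, so that differences from such levels are given on the log2 scale without a fold. The difference was 3.10 ± 0.12 (SE) between iHepSCs and MEFs (adjusted p = 1.08e-05) and 8.88 ± 0.15 between pHeps and MEFs (adjusted p = 3.82e-06), and iHepSCs remained -5.79 from pHeps (adjusted p = 1.06e-05).

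G6pc encodes the catalytic subunit of glucose-6-phosphatase, the last step before glucose leaves the hepatocyte. It read 4.74, 4.52, 4.68 and 4.54 in MEFs, 5.31 (P3) and 5.59 (P20) in iHepSCs and 9.59 in pHeps. The iHepSC arrays were slightly above every MEF array, which were below that quartile. The difference was 0.83 ± 0.13 in iHepSCs (adjusted p = 0.00388) and 4.98 ± 0.16 in pHeps (adjusted p = 1.13e-05). Khk, ketohexokinase, which opens the breakdown of fructose, read 8.15, 8.09, 8.06 and 8.34 in MEFs, 9.32 (P3) and 9.60 (P20) in iHepSCs and 10.52 in pHeps. The arrays of the 3 groups did not overlap and stood in that order. Khk was higher by 1.30 ± 0.13 in iHepSCs (adjusted p = 0.000689) and by 2.36 ± 0.17 in pHeps (adjusted p = 0.000212).

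Gckr, Pck1, Fbp1 and Gys2 passed the test in pHeps and not in iHepSCs. Gckr encodes the regulatory protein that holds glucokinase inactive in the hepatocyte nucleus. Its level was 5.71, 5.49, 5.76 and 5.73 in MEFs, 5.67 (P3) and 5.69 (P20) in iHepSCs and 8.33 in pHeps, with the iHepSC arrays inside the MEF range. Gckr was higher in pHeps by 2.66 ± 0.15 (adjusted p = 6.89e-05), and in iHepSCs its difference was 0.01 ± 0.11 (adjusted p = 0.964). Pck1, the cytosolic phosphoenolpyruvate carboxykinase that opens gluconeogenesis, read 4.01, 4.10, 3.90 and 4.10 in MEFs, 3.98 (P3) and 3.90 (P20) in iHepSCs and 7.56 in pHeps. All MEF and iHepSC values were among the dimmest of their arrays, and the pHep value stood alone. The rise of Pck1 in pHeps was 3.53 ± 0.13 (adjusted p = 1.78e-05), against -0.09 ± 0.10 in iHepSCs (adjusted p = 0.591). Its other probe sets stayed dim on every array, with 4.22 and 3.64 in pHeps, so that the rise rests on 1 probe set of 3, and the dimmest was higher in iHepSCs by 0.37 (adjusted p = 0.0454).

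Fbp1, the gluconeogenic phosphatase of the liver, read 5.78, 5.53, 5.70 and 5.59 in MEFs, 5.70 (P3) and 5.43 (P20) in iHepSCs and 10.46 in pHeps. The iHepSC arrays overlapped the MEF arrays. Its difference was -0.09 ± 0.12 in iHepSCs (adjusted p = 0.659) and 4.81 ± 0.16 in pHeps (28-fold, adjusted p = 1.16e-05). Gys2, the liver glycogen synthase, read 4.14, 4.33, 4.35 and 4.44 in MEFs, 4.31 (P3) and 4.45 (P20) in iHepSCs and 6.79 in pHeps. Here too the iHepSC arrays overlapped the MEF arrays, at a level below the lower quartile of the array. Gys2 rose by 2.47 ± 0.15 in pHeps (adjusted p = 0.000112), and its difference in iHepSCs was 0.07 ± 0.12 (adjusted p = 0.71).

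Pygl, the liver form of glycogen phosphorylase, which frees glucose units from the glycogen store, was the member called in opposite directions with a lower level in iHepSCs. It read 6.33, 6.67, 6.64 and 6.57 in MEFs, 4.76 (P3) and 4.80 (P20) in iHepSCs and 11.86 in pHeps. Both iHepSC arrays lay below every MEF array, at dim levels under the lower quartile, and the pHep array far above. Pygl fell in iHepSCs, with a difference of -1.77 ± 0.12 (adjusted p = 0.000144), and rose in pHeps by 5.31 ± 0.16 (39.6-fold, adjusted p = 9e-06). The difference between iHepSCs and pHeps was -7.08 ± 0.18 (adjusted p = 6.69e-06).

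Pklr, which encodes the pyruvate kinase of liver and red cells, depended on the probe set. The probe set with the highest mean read 8.30, 8.10, 8.70 and 8.61 in MEFs, 8.30 (P3) and 8.29 (P20) in iHepSCs and 8.76 in pHeps, and neither difference passed the test (-0.13 ± 0.19, adjusted p = 0.652, and 0.33 ± 0.24, adjusted p = 0.333). A dimmer one read 6.56, 6.23, 6.61 and 6.64 in MEFs, 7.60 and 7.68 in iHepSCs and 9.88 in pHeps. The third and dimmest read 6.29, 6.30, 6.45 and 6.31, then 7.10 and 6.97, then 8.65. In both of these, chosen after their values were seen, the groups did not overlap and stood in the order MEF, iHepSC, pHep. Their differences between iHepSCs and MEFs were 1.13 (adjusted p = 0.00181) and 0.70 (adjusted p = 0.00281), and those between pHeps and MEFs 3.37 and 2.31.

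**Figure D2:**
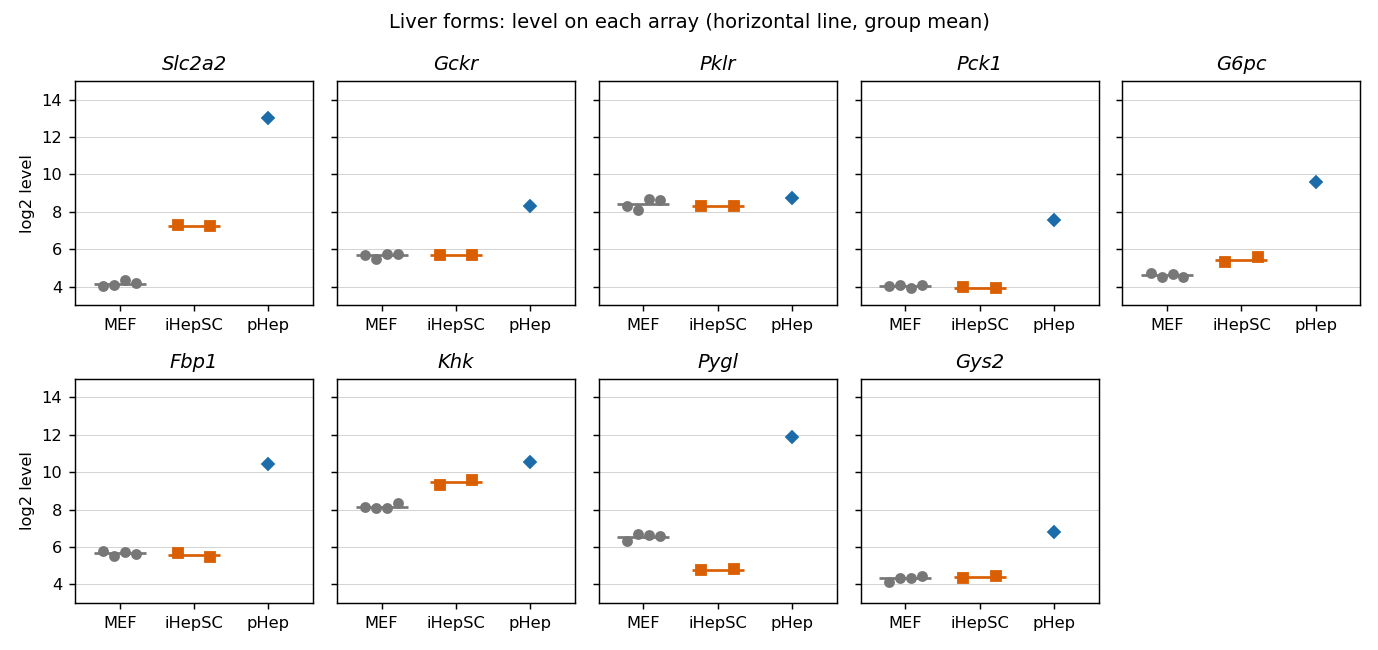
Log2 level (vertical axis, the same scale in each panel) of the 9 liver forms on the 4 MEF arrays (grey circles), the 2 iHepSC arrays (orange squares) and the pHep array (blue diamond), with a line at the mean of each replicated group and Pklr shown by its brightest probe set. The diamond stands above all other points in every panel, least so for Pklr, and the squares leave the MEF circles upwards for Slc2a2, G6pc and Khk and downwards for Pygl.

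Among the 8 liver forms with a promoter in the table, 5 are shown, chosen because they hold 1 of the motifs GTTAAT and CAAAGT, which were searched for as letters of sites that liver factors bind. Fbp1, Pygl and Pklr hold neither. The sequences are the 250 bases before the start of each gene in RefSeq (GRCm38.p6), 5′ to 3′ on the gene's strand. In the 4 lines that follow, capitals mark the letters GTTAAT, found in sites bound by HNF1 factors, on either strand. G6pc lies at chr11:101367466-101367715 (+), Pck1 at chr2:173152823-173153072 (+), Gckr at chr5:31297313-31297562 (+) and Khk at chr5:30921309-30921558 (+).
G6pc: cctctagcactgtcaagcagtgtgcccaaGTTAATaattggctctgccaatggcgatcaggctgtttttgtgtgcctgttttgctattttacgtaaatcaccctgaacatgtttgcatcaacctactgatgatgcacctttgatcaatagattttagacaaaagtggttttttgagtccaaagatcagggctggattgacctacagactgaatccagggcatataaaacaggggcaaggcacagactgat
Pck1: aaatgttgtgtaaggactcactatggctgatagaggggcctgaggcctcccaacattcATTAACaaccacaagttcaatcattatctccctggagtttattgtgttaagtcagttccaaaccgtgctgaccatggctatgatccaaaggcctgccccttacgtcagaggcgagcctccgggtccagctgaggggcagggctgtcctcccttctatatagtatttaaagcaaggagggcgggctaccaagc
Gckr: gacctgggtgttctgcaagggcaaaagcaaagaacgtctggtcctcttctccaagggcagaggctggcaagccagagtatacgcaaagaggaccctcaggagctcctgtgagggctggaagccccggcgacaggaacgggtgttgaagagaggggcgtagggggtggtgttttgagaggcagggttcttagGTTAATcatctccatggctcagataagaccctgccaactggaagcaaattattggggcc
Khk: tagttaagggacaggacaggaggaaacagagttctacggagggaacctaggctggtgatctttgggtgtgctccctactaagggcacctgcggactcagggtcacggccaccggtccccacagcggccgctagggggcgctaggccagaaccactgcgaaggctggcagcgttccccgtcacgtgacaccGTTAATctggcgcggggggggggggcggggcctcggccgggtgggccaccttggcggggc
GTTAAT was in 4 of the 8 liver-form promoters in the table and in 5.79% of 14452 genes (6.43% of all 32851 promoter windows of this length). Over all 43 member promoters it was in the same 4 (9.3%), and in 2 of the 14 of members higher in iHepSCs. Counted from the gene's start, the match began at -221 in G6pc, -192 in Pck1, -59 in Gckr and -60 in Khk. CAAAGT, part of sites bound by HNF4 factors, was in 1 of the 8, that of Slc2a2, and in 13.2% of genes (12.6% of all windows). CAAAGT was also in 8 of all 43 member promoters and in 3 of the 14 of members higher in iHepSCs, that of Slc2a2 included. CAAAGT is the first stretch of the Slc2a2 window, in capitals and on the opposite strand, at chr3:28697653-28697902 (+).
Slc2a2: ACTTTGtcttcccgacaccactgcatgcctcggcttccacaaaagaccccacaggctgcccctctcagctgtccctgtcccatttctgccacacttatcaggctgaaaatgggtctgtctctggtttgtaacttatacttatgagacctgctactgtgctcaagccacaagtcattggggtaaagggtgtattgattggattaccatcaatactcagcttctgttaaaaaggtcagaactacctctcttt
The motifs were chosen with the results known, and a match describes letters and no bound site.

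For 6 of the 9 liver forms and for Pfkl, a partner form of the same step was measured, and the log2 difference of the pair was taken on each array. Relative to the MEF mean this balance was above 0 in 6 of 7 pairs in pHeps and in 4 of 7 in iHepSCs. Of those 4, the pairs of Slc2a2 and Pfkl had both iHepSC arrays above all MEF arrays, and that of Pklr had both inside the MEF range. For Gys2 the P3 array lay inside it, and the P20 array, at -4.41, just above the highest MEF array, at -4.44. The balance of Slc2a2 to Slc2a1 rose by 3.54 in iHepSCs and 9.79 in pHeps relative to the MEF mean. That of Pygl to Pygb was -3.38 in iHepSCs and 4.90 in pHeps, and that of Fbp1 to Fbp2 was -1.32 and 5.03. For Pck1 to Pck2 the values were -0.92 and 3.01. In these 3 pairs the iHepSCs and the pHeps lay on opposite sides of the MEFs. Pfkl to Pfkp was 1.71 in iHepSCs, where Pfkp fell and Pfkl did not pass the test. In pHeps it was -0.14, inside the range of the MEF arrays. Gys2 to Gys1 was 0.12 in iHepSCs and 3.56 in pHeps, and Pklr to Pkm was 0.05 and 2.13, or 1.31 and 5.17 with the dimmer Pklr probe set that rose most. The two-sided exact permutation test of 4 MEF against 2 iHepSC arrays gave its smallest p, 0.0667, for 5 pairs (0.0933 after Benjamini-Hochberg over the 7 pairs), so that no pair could pass 0.05.

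**Figure D3:**
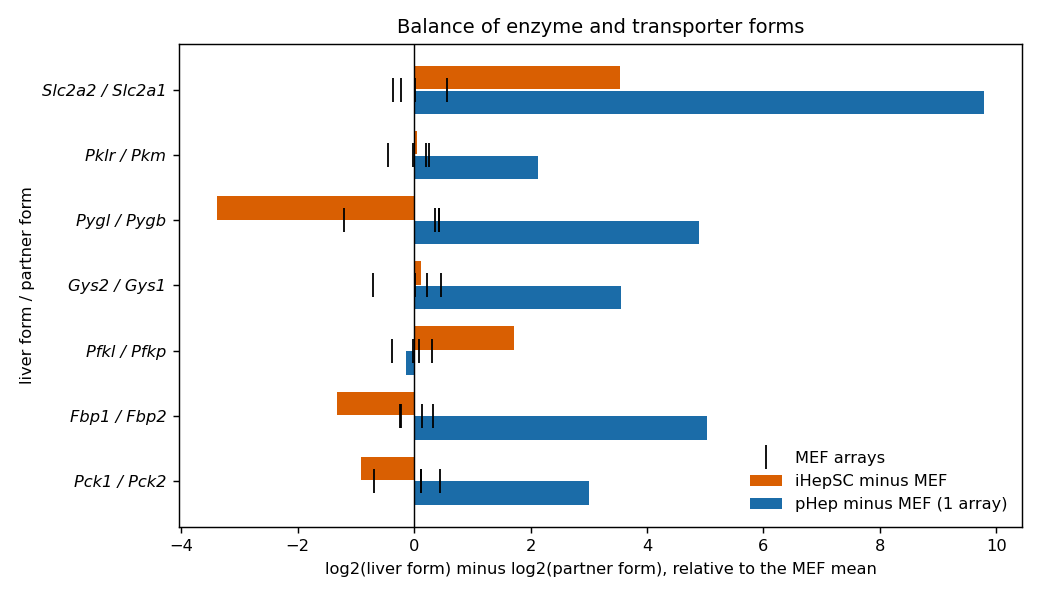
Change of the balance between liver form and partner form (horizontal axis, log2 of the liver form minus log2 of the partner form, relative to the MEF mean) for 7 pairs, with orange bars for the mean of 2 iHepSC arrays, blue bars for the pHep array and black ticks for the single MEF arrays. Blue bars reach from -0.14 to 9.79, and orange bars point left for Pygl, Fbp1 and Pck1. The pair of Pfkl is shown with the others, though Pfkl is not counted as a liver form.

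Glucose transporters other than GLUT2 moved in different directions. Slc2a1 (GLUT1), the transporter of most growing cells, read 11.21, 12.21, 12.07 and 12.14 in MEFs, 11.65 (P3) and 11.28 (P20) in iHepSCs and 11.00 in pHeps. Apart from the lower MEF replicate 1, the MEF arrays were above both other groups, and neither difference passed the test (-0.44 ± 0.31, adjusted p = 0.342, and -0.91 ± 0.40, adjusted p = 0.135). Another of its probe sets gave 0.27 in iHepSCs. Slc2a3 (GLUT3), a high-affinity transporter known from neurons, read 9.87, 7.94, 8.14 and 7.95 in MEFs, 11.03 (P3) and 10.71 (P20) in iHepSCs and 5.45 in pHeps. The 3 groups did not overlap, and MEF replicate 1 was the MEF array nearest to the iHepSCs. Slc2a3 rose by 2.39 ± 0.58 in iHepSCs (adjusted p = 0.0236) and fell in pHeps, with a difference of -3.02 ± 0.75 (adjusted p = 0.0275). Both calls were lost without single arrays. The adjusted p was 0.0642 to 0.150 in iHepSCs when MEF replicate 2, 3 or 4 or either iHepSC replicate was left out, and 0.0571 to 0.0626 in pHeps without MEF replicate 3 or either iHepSC replicate. A pair of its probe sets without shared-probe suffixes, dim at 4.27 to 5.63 on all arrays, gave -0.41 and -0.29 in iHepSCs. The remaining probe set, with such a suffix, gave 2.24 in iHepSCs and -3.05 in pHeps (adjusted p = 0.0143 and 0.0134). Slc2a4 (GLUT4), the insulin-responsive transporter of muscle and fat, was lower in pHeps (-0.80 ± 0.16, adjusted p = 0.0138) and differed by -0.08 ± 0.13 in iHepSCs, and by 0.22 with its other probe set.

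Hexokinases trap glucose in the cell, and among them Hk2, the inducible form of growing cells and muscle, was called in opposite directions. It read 10.35, 10.21, 10.33 and 10.27 in MEFs, 11.40 (P3) and 11.02 (P20) in iHepSCs and 8.33 in pHeps. The 4 MEF arrays were close together, with both iHepSC arrays above and the pHep array below them. Hk2 rose by 0.92 ± 0.13 in iHepSCs (1.89-fold, adjusted p = 0.00296) and fell in pHeps (difference -1.96 ± 0.17, 3.88-fold, adjusted p = 0.000484). Hk1, the housekeeping form, differed by 0.77 ± 0.31 in iHepSCs (adjusted p = 0.121) and -0.16 ± 0.41 in pHeps (adjusted p = 0.794), and its other probe set gave -0.95 in iHepSCs (adjusted p = 0.0986), the opposite direction, and -1.93 in pHeps (adjusted p = 0.0253). Hk3 differed by 0.33 ± 0.10 in iHepSCs (adjusted p = 0.0535) and by -0.08 ± 0.13 in pHeps, where its other probe set gave 0.91. The Hk2 promoter is shown for its ACGTG letters, the core of sites bound by hypoxia-inducible factors, in capitals on the opposite strand, at chr6:82774455-82774704 (-).
Hk2: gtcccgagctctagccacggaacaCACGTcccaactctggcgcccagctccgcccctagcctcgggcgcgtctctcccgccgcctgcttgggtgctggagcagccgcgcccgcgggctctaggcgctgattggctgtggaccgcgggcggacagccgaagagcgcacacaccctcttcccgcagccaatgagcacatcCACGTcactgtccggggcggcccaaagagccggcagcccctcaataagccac
ACGTG was in 22 of the 43 member promoters in the table and in 9 of the 14 of members higher in iHepSCs, where 22.5% of genes and 16.6% of all windows hold it. Those of Slc2a2, Tpi1, Pdk1, G6pc and Gbe1 were the ones of the 14 without it. Among the liver forms it was in 2 of 8. Slc2a3, Slc2a4 and Gys2 have no entry in that table. No test was made of these shares.

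In upper glycolysis the phosphofructokinases, which commit sugar to the pathway, differed among themselves. Pfkp, the platelet form, read 9.08, 9.55, 9.65 and 9.56 in MEFs, 7.33 (P3) and 7.59 (P20) in iHepSCs and 10.06 in pHeps. Both iHepSC arrays were below all others, and the pHep array was above the MEFs. Pfkp fell in iHepSCs (difference -2.00 ± 0.19, 4-fold, adjusted p = 0.000492), and its difference in pHeps was 0.60 ± 0.24 (adjusted p = 0.11). Another of its probe sets gave -1.95 and -1.86 (adjusted p = 0.128 and 0.227). Pfkl, the liver type, read 8.97, 10.13, 9.89 and 9.91 in MEFs, 9.66 (P3) and 9.22 (P20) in iHepSCs and 10.19 in pHeps. MEF replicate 1 was the lowest of the 7, and Pfkl passed the test in neither group (-0.29 ± 0.34 and 0.46 ± 0.44). One of its other probe sets gave 0.27 and 0.49, the latter past the test (adjusted p = 0.0272). Pfkm, the muscle form, differed by 0.42 ± 0.15 in iHepSCs (adjusted p = 0.0786) and by -0.05 in pHeps. Aldolase A (Aldoa), which splits the sugar, differed by 0.20 and -0.35. Aldolase C (Aldoc), known from brain, differed in both groups by 1.96 ± 0.60 and 2.01 ± 0.78, which did not pass the test (adjusted p = 0.0528 and 0.101), beside a MEF replicate 1 that lay 1.92 above the other MEF arrays. Its other probe set gave -0.07 and 0.21. Triose phosphate isomerase (Tpi1) was higher by 0.43 ± 0.13 in iHepSCs with an adjusted p at the threshold (0.0498), and without iHepSC replicate 1 its difference was 0.24 (adjusted p = 0.273). Leaving out MEF replicate 2, 3 or 4 also ended the Tpi1 call, with an adjusted p of 0.105 to 0.119.

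The Pfkfb enzymes set the level of fructose 2,6-bisphosphate, which switches phosphofructokinase on and fructose bisphosphatase off. Pfkfb2, the heart form, read 7.74, 6.18, 6.27 and 6.30 in MEFs, 9.60 (P3) and 9.83 (P20) in iHepSCs and 8.32 in pHeps. The iHepSC arrays were above the pHep array, which was above all MEF arrays, of which replicate 1 was the highest. Pfkfb2 rose by 3.09 ± 0.46 in iHepSCs (8.54-fold, adjusted p = 0.00353), and its difference in pHeps was 1.70 ± 0.60 (adjusted p = 0.0784). Its 3 dimmer probe sets gave 1.06, 0.41 and -0.05 in iHepSCs and 0.32, -0.24 and -0.24 in pHeps. Pfkfb3, the inducible form with the strongest kinase activity, read 8.28, 7.64, 7.65 and 7.83 in MEFs, 8.74 (P3) and 9.65 (P20) in iHepSCs and 7.82 in pHeps. The P20 array was the highest, and pHeps lay inside the MEF range. Pfkfb3 rose by 1.35 ± 0.30 in iHepSCs (adjusted p = 0.0171), but without iHepSC replicate 2 the difference was 0.89 (adjusted p = 0.111), and without MEF replicate 2, 3 or 4 the adjusted p was 0.0505 to 0.0524. Its other probe set gave -0.29. Pfkfb4 read 8.31, 8.92, 8.38 and 8.34 in MEFs, 7.82 (P3) and 7.88 (P20) in iHepSCs and 6.77 in pHeps. Both groups were below all MEF arrays, and the pHep value was the lowest. Pfkfb4 fell in pHeps (difference -1.72 ± 0.25, adjusted p = 0.00388), and in iHepSCs the difference was -0.64 ± 0.19 (adjusted p = 0.0503).

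In lower glycolysis none of 7 members passed the test upwards by its brightest probe set, though Pklr did by its dimmer ones, and the members called lower were Eno3 in both groups and Eno2 and Pkm in pHeps. Of all genes 18.2% were higher and 13.4% lower in iHepSCs, and 14.8% higher and 15.5% lower in pHeps. Eno3, muscle enolase, read 9.23, 9.99, 10.15 and 10.01 in MEFs, 7.69 (P3) and 7.56 (P20) in iHepSCs and 6.75 in pHeps. All MEF arrays were above both other groups. Eno3 fell in iHepSCs (difference -2.22 ± 0.27, adjusted p = 0.00147) and in pHeps (difference -3.10 ± 0.35, adjusted p = 0.00142). Of 5 skeletal muscle markers, Acta1 fell in both groups and Tnnt3 in pHeps, while Ckm, Myh1 and Myog passed the test in neither group. The mean level of the 5 was 6.95 to 7.26 in MEFs, 6.09 and 6.15 in iHepSCs and 5.92 in pHeps. Most of that difference came from Acta1, which averaged 12.9 in MEFs and 7.87 in iHepSCs and read 8.60 in pHeps. The part of these markers in the fall of Eno3 was not tested. Eno2, neuronal enolase, read 8.28, 6.38, 6.92 and 6.60 in MEFs, 7.67 (P3) and 7.79 (P20) in iHepSCs and 4.74 in pHeps. The iHepSC arrays lay inside the wide MEF range, whose top was replicate 1, and the pHep array below it. Eno2 fell in pHeps (difference -2.30 ± 0.68, adjusted p = 0.0479), a call lost with an adjusted p of 0.0565 to 0.0960 when MEF replicate 2, 3 or 4 or either iHepSC replicate was left out.

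Pkm, the pyruvate kinase of most tissues, which makes pyruvate at the end of glycolysis, read 13.03, 13.25, 13.19 and 13.05 in MEFs, 13.08 (P3) and 12.83 (P20) in iHepSCs and 11.33 in pHeps. The iHepSC arrays stayed at about the MEF level, with P20 just below it, and the pHep array was lowest. Pkm fell in pHeps (difference -1.80 ± 0.16, 3.49-fold, adjusted p = 0.000503) and differed by -0.18 ± 0.12 in iHepSCs (adjusted p = 0.336). The other members of this stretch, Pgk1, Pgam1 and the muscle form Pgam2, did not pass the test in either comparison, with differences of 0.21, 0.07 and -1.03 in iHepSCs and -0.42, -0.13 and -1.36 in pHeps. Of these, Pgam2 had both groups below all MEF arrays. Gapdh, read by control probe sets, differed by -0.49 in iHepSCs and -0.03 in pHeps.

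Lactate handling in iHepSCs combined a fall of Ldhb with a rise of Slc16a1. Ldhb, the heart form of lactate dehydrogenase, read 10.71, 9.44, 9.42 and 9.31 in MEFs, 7.25 (P3) and 6.99 (P20) in iHepSCs and 9.07 in pHeps. Both iHepSC arrays lay below every other array. Ldhb fell in iHepSCs (difference -2.60 ± 0.41, 6.06-fold, adjusted p = 0.00454), though without iHepSC replicate 2 the adjusted p was 0.0534, and its difference in pHeps was -0.65 ± 0.53 (adjusted p = 0.388). Its 3 dimmer probe sets gave -3.20, -3.51 and -5.45 in iHepSCs (adjusted p = 0.00241, 0.00182 and 0.000165). Ldha, the muscle form, differed by 0.01 ± 0.14 in iHepSCs and -0.06 ± 0.19 in pHeps, with adjusted p of 0.964 and 0.813. Slc16a1 (MCT1), which carries lactate and pyruvate across the membrane, read 10.30, 10.56, 10.69 and 10.62 in MEFs, 12.97 (P3) and 12.93 (P20) in iHepSCs and 11.35 in pHeps. The groups did not overlap, and iHepSCs were the highest. Slc16a1 rose by 2.41 ± 0.13 in iHepSCs (5.3-fold, adjusted p = 5.41e-05) and by 0.81 ± 0.17 in pHeps (adjusted p = 0.0166), where its dim other probe set gave -0.35. Slc16a3 (MCT4), the lactate exporter of glycolytic cells, passed the test in neither group (-0.41 and -0.57). The Slc16a1 promoter, at chr3:104638414-104638663 (+), is shown for its capitals CACGTG, a palindrome that holds ACGTG on both strands and is bound by E-box factors.
Slc16a1: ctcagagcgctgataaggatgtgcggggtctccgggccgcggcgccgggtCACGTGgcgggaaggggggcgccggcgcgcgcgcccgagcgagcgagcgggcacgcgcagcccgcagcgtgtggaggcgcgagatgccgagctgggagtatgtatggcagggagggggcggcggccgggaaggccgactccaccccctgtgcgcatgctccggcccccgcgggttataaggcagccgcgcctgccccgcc
CACGTG was in 6 of the 14 promoters of members higher in iHepSCs and in 8 of all 43, where 8.73% of genes and 6.02% of all windows hold it. Since CACGTG contains ACGTG, all of these promoters are also in the ACGTG counts above, and the counts of the motifs are not separate results.

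Pyruvate dehydrogenase kinases keep pyruvate out of the mitochondrial acetyl-CoA pool, and all 4 were called in iHepSCs, 2 in each direction. Of all genes 31.6% were called there, 18.2% higher and 13.4% lower. Pdk1, a target of hypoxia signalling, read 8.73, 8.59, 8.49 and 8.65 in MEFs, 11.27 (P3) and 10.86 (P20) in iHepSCs and 10.12 in pHeps. The MEF arrays were lowest and the iHepSC arrays highest. Pdk1 rose by 2.45 ± 0.14 in iHepSCs (5.47-fold, adjusted p = 6.84e-05) and by 1.51 ± 0.19 in pHeps (adjusted p = 0.0021). Pdk2, the most widely expressed form, read 6.03, 5.01, 5.04 and 5.54 in MEFs, 6.64 (P3) and 6.52 (P20) in iHepSCs and 7.47 in pHeps. All iHepSC values were above the MEFs, whose highest arrays were replicates 1 and 4. Pdk2 rose by 1.18 ± 0.31 in iHepSCs (adjusted p = 0.0301) and by 2.06 ± 0.40 in pHeps (adjusted p = 0.0114), and the iHepSC call was lost with an adjusted p of 0.0661 to 0.169 when any array but MEF replicate 1 was left out of the MEF and iHepSC groups.

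Pdk3 and Pdk4 fell in iHepSCs. Pdk3 read 10.27, 10.43, 10.38 and 10.23 in MEFs, 8.02 (P3) and 7.72 (P20) in iHepSCs and 8.17 in pHeps. All MEF arrays stood well above both other groups. The difference of Pdk3 was -2.46 ± 0.12 in iHepSCs (adjusted p = 3.65e-05) and -2.16 ± 0.16 in pHeps (adjusted p = 0.000251). Pdk4, the form induced by fasting and glucocorticoids in liver, read 9.01, 7.88, 7.72 and 8.03 in MEFs, 4.84 (P3) and 4.50 (P20) in iHepSCs and 7.42 in pHeps. The iHepSC arrays were at dim levels under the lower quartile, while the pHep array lay just below the MEF range. Pdk4 fell in iHepSCs, with a difference of -3.49 ± 0.37 (adjusted p = 0.000848), and in pHeps the difference was -0.74 ± 0.48 (adjusted p = 0.281).

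**Figure D4:**
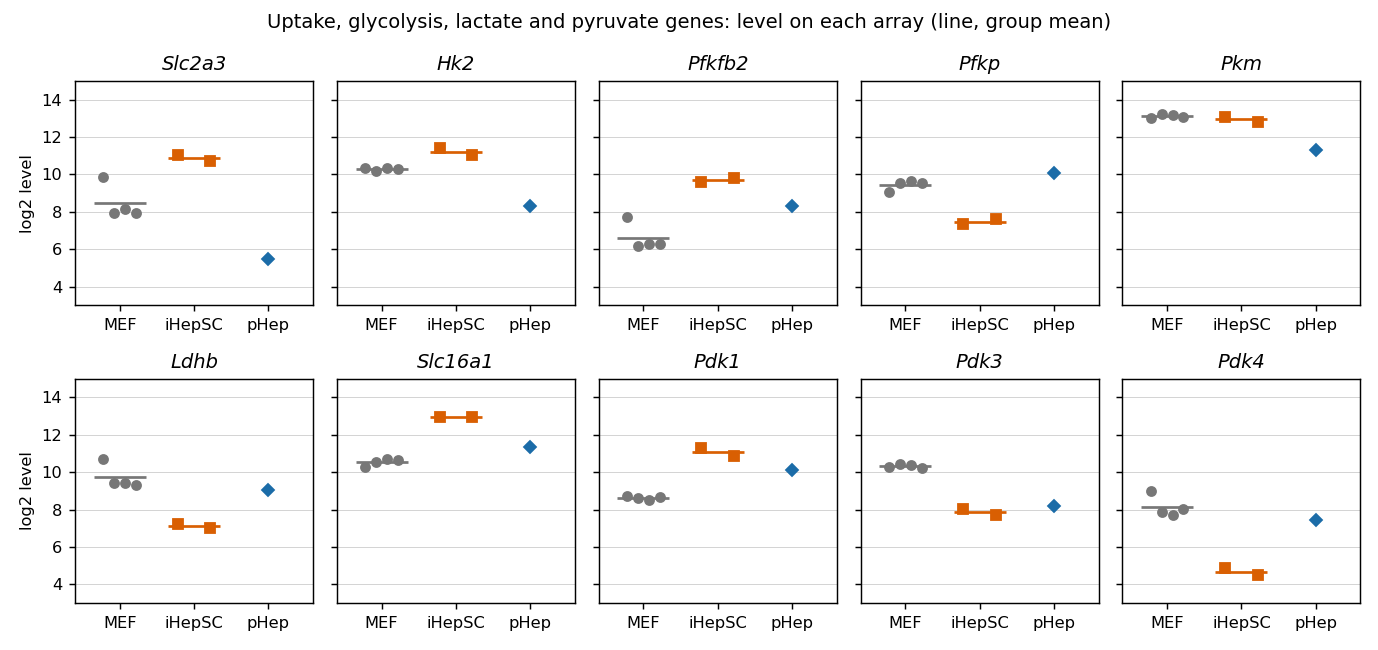
Log2 level (vertical axis, the same scale in each panel) of 10 members of uptake, glycolysis, lactate and pyruvate handling on the 4 MEF arrays (grey circles), the 2 iHepSC arrays (orange squares) and the pHep array (blue diamond), with a line at the mean of each replicated group. The squares leave the MEF circles upwards for Slc2a3, Hk2, Pfkfb2, Slc16a1 and Pdk1 and downwards for Pfkp, Ldhb, Pdk3 and Pdk4, and the leftmost MEF circle (replicate 1) sits apart for Slc2a3, Pfkfb2, Ldhb and Pdk4.

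Among the other gluconeogenesis members, Fbp2, the muscle fructose bisphosphatase, was called in iHepSCs. It read 6.61, 5.98, 5.95 and 6.40 in MEFs, 7.48 (P3) and 7.47 (P20) in iHepSCs and 6.01 in pHeps. Both iHepSC arrays were above all others. Fbp2 rose by 1.24 ± 0.21 in iHepSCs (adjusted p = 0.00618; 0.0561 and 0.0570 without iHepSC replicate 1 or 2) and differed by -0.22 ± 0.27 in pHeps. Pck2, the mitochondrial carboxykinase, read 11.13, 10.41, 10.22 and 10.10 in MEFs, 11.22 (P3) and 11.38 (P20) in iHepSCs and 10.99 in pHeps. Its iHepSC arrays lay just above MEF replicate 1 and further above the other MEF arrays, and the difference, 0.83 ± 0.29, did not pass the test (adjusted p = 0.0817). Ppargc1a, the coactivator that drives gluconeogenic and mitochondrial genes in fasting liver, read 5.23, 4.35, 4.90 and 4.61 in MEFs, 5.65 (P3) and 7.10 (P20) in iHepSCs and 6.44 in pHeps. The passages stood further apart than for any other member, with P20 the highest array of the 7. Ppargc1a rose by 1.60 ± 0.43 in iHepSCs (adjusted p = 0.035), but without iHepSC replicate 2 the difference was 0.88 (adjusted p = 0.187) and without MEF replicate 2, 3 or 4 the adjusted p was 0.0789 to 0.0908. In pHeps its difference was 1.67 ± 0.56 (adjusted p = 0.0699).

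Among glycogen members that are no liver forms, Pygb rose most in iHepSCs and Gbe1, the branching enzyme, in pHeps. Gbe1 read 7.13, 7.00, 6.97 and 6.88 in MEFs, 8.24 (P3) and 7.92 (P20) in iHepSCs and 10.37 in pHeps. The groups did not overlap and stood in that order. Gbe1 rose by 1.08 ± 0.13 in iHepSCs (adjusted p = 0.00141) and by 3.38 ± 0.17 in pHeps (10.4-fold, adjusted p = 4.74e-05). Pygb, the brain form of phosphorylase found in most cells, read 11.19, 9.97, 9.86 and 9.81 in MEFs, 11.80 (P3) and 11.82 (P20) in iHepSCs and 10.62 in pHeps. MEF replicate 1 lay above the pHep array and close to the iHepSCs, and the other MEF arrays below. Pygb rose by 1.60 ± 0.41 in iHepSCs (adjusted p = 0.0283), with an adjusted p of 0.0731 to 0.160 when any array but MEF replicate 1 was left out of the MEF and iHepSC groups. Gys1, the synthase of muscle and most other cells, read 9.75, 9.21, 9.04 and 8.88 in MEFs, 9.46 (P3) and 8.87 (P20) in iHepSCs and 8.14 in pHeps. The iHepSC arrays overlapped the MEFs and the pHep array was lowest, but neither difference passed the test (-0.06 ± 0.28 and -1.08 ± 0.37, adjusted p = 0.907 and 0.0714). Ugp2, which makes the UDP-glucose that synthase uses, was slightly lower in iHepSCs (-0.38 ± 0.10, adjusted p = 0.0327), a call lost without any array other than MEF replicate 1 (adjusted p of 0.0671 to 0.203) and turned to 0.11 when arrays were centred on Gapdh. Its other probe sets gave -0.46 to 0.34. Pygm, the muscle phosphorylase, differed by 0.14 and -0.06.

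Set directly against pHeps, iHepSCs were lower for 8 of the 9 liver forms and higher for 9 members, of which Slc2a3, Eno2, Hk2, Pkm, Pfkfb4 and Slc2a4 fell in pHeps against MEFs, Slc16a1 and Pdk1 rose there, and Fbp2 was not called there. Of the 46 members 21 passed the test, 12 of them lower and 9 higher in iHepSCs, and 25 did not, where 17.1% of all genes passed it, 7.89% lower and 9.26% higher. Centring on Gapdh gave 9 lower and 10 higher members. The lower ones were the liver forms other than Pklr, together with Pfkp (-2.60 ± 0.27), Pdk4 (-2.75 ± 0.52), Gbe1 (-2.30 ± 0.18) and Ugp2 (-0.75 ± 0.14). The higher ones were Slc2a3 (5.41 ± 0.82), Eno2 (2.99 ± 0.74), Hk2 (2.87 ± 0.19), Pkm (1.62 ± 0.17), Slc16a1 (1.60 ± 0.19), Fbp2 (1.46 ± 0.30), Pfkfb4 (1.09 ± 0.27), Pdk1 (0.94 ± 0.20) and Slc2a4 (0.72 ± 0.18). Pklr was lower by its dimmer probe sets (-2.24 and -1.61, adjusted p = 0.000771 and 0.000638) and not by its brightest (-0.46, adjusted p = 0.308). Eno3, Pdk3 and Pfkl did not pass the test (0.88, -0.31 and -0.75). Khk was the liver form nearest to pHeps among those that passed, at -1.06 ± 0.19 (adjusted p = 0.0123, and 0.0609 without iHepSC replicate 1). When any 1 MEF or iHepSC array was left out, 4 of the 9 higher and 9 of the 12 lower calls held throughout. The calls of Slc2a4, Pfkfb4, Eno2, Pdk1, Pdk4, Fbp2 and Ugp2 were lost at least once, with adjusted p up to 0.164, 0.159, 0.158, 0.0838, 0.0889, 0.101 and 0.0817.

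Both comparisons with MEFs use the same MEF arrays, and their calls are set side by side only as counts. In all, 7 members were higher in both, namely Slc2a2, Slc16a1, Pdk1, Pdk2, G6pc, Khk and Gbe1, and Eno3 and Pdk3 were lower in both. Slc2a3 and Hk2 were higher in iHepSCs and lower in pHeps, and Pygl was the reverse. Over all genes 8.68% were higher in both, 8.15% lower in both, 0.874% higher in iHepSCs and lower in pHeps and 0.748% the reverse, and nothing is read from the members' counts beside them. Tpi1, Pfkfb2, Pfkfb3, Fbp2, Ppargc1a and Pygb were higher in iHepSCs alone past the test, and Pfkp, Ldhb, Pdk4 and Ugp2 were lower there. Gckr, Pck1, Fbp1 and Gys2 passed the test upwards in pHeps without passing it in iHepSCs, Slc2a4, Pfkfb4, Eno2 and Pkm did so downwards, and 16 members passed it in neither. By form, 2 of 12 ubiquitous forms were higher and 1 was lower in iHepSCs, with a median of 0.04, and 1 was lower in pHeps, with a median of -0.25. Of the 6 muscle forms 1 was higher and 1 lower in iHepSCs, and 2 were lower in pHeps. Beside these counts by form, 18.2% of all genes were higher and 13.4% lower in iHepSCs, and 15.5% lower in pHeps.

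MEF replicate 1 widened the spread of many members. It differed by more than 1 from the mean of the other MEF arrays for 9 of the 46 members, where 12.0% of all genes did so, while MEF replicates 2 to 4 spanned less than 1 for every member. Without it, 33 members passed the test in iHepSCs in place of 22 and 33 in pHeps in place of 20, with all earlier calls among them, where the share of all genes that passed rose to 55.8% in iHepSCs and 58.6% in pHeps. The 11 added in iHepSCs were Aldoc, Eno2, Hk1, Hk3, Pck2, Pfkfb4, Pfkl, Pfkm, Pgam2, Slc16a3 and Slc2a1. Of these, Aldoc then differed by 2.44, Eno2 by 1.10, Pck2 by 1.05 and Hk1 by 1.01 upwards, and Slc2a1 by -0.68 and Pgam2 by -0.73. The 13 added in pHeps included Aldoc at 2.49, Pfkfb2 at 2.07 and Ppargc1a at 1.82, with Slc2a1 at -1.14 and Pgam2 at -1.06. The direction of these members was that of the fit with all arrays. With MEF replicates 2 to 4 averaged as 1 sample, 10 of the 22 calls in iHepSCs were lost. Among calls that had held without any 1 array, those of Hk2, Pfkfb2 and G6pc ended (adjusted p = 0.0565, 0.0564 and 0.0601). In pHeps 5 of the 20 calls were lost, among them Slc2a4, Slc16a1 and Pdk2 (adjusted p = 0.0736, 0.0790 and 0.0702), which had held in the same way.

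The passages were measured once each, so that their difference has no test. P20 was lower than P3 for 31 of the 46 members, with a median difference of -0.13. Over all genes the median was 0.0027, so that no more of them were lower than higher. The exact share of all genes that were lower was not counted, and the Gapdh control probe sets averaged 13.97 at P3 and 13.67 at P20. The difference was over 0.5 in either direction for 4 members, Ppargc1a (1.45), Pfkfb3 (0.91), Slc16a3 (-0.76) and Gys1 (-0.60), where 4.40% of all genes were. Slc2a2, Slc16a1, Pygl and Pygb were nearly level between the passages, at -0.06, -0.03, 0.04 and 0.02.

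Genes of neighbouring pathways were counted from lists that hold no member. Beside these counts, 18.2% of all genes were higher and 13.4% lower in iHepSCs, and 14.8% higher and 15.5% lower in pHeps. The counts were not tested against these shares. In the pentose phosphate pathway, which turns glucose 6-phosphate into NADPH and ribose, 4 of 7 genes were higher and 1 lower in iHepSCs, and 3 were higher and 2 lower in pHeps. H6pd, its enzyme in the endoplasmic reticulum, rose by 2.47 in iHepSCs and 3.68 in pHeps. Of 9 genes of pyruvate entry and carboxylation, 1 was higher and 1 lower in iHepSCs, and 2 were higher and 3 lower in pHeps. Glycogen regulators numbered 13, with 3 higher and 2 lower in each comparison with MEFs, among them Phka2, the liver subunit of phosphorylase kinase, at 2.27 in iHepSCs, Ppp1r3b, which brings the phosphatase to liver glycogen, at 3.46 in pHeps, and Ppp1r3d at -1.74 in iHepSCs. Hkdc1, a putative hexokinase, was the largest rise in iHepSCs among all 56 of these genes, at 3.38, and did not pass the test in pHeps (-0.19). In its list of other glycolysis and glucose release steps 3 of 6 were higher in iHepSCs and 2 in pHeps. Of 6 genes of fructose, polyol and galactose use, 1 was higher in iHepSCs, and 1 was higher and 1 lower in pHeps (Gfpt1, at -1.17). Among 15 regulators, 5 were higher and 2 lower in iHepSCs and 7 higher and 2 lower in pHeps. Mlxipl, the carbohydrate response factor of liver, was higher by 3.98 in pHeps and differed by 0.54 in iHepSCs. Irs1, an insulin receptor substrate, fell in both (-2.75 and -2.84), as did Hif1a (-1.46 and -0.89) and Rpe, of the pentose phosphate pathway (-0.83 and -1.35). Directly against pHeps, iHepSCs were highest for Hkdc1 (3.56), Gfpt1 (2.22) and Pdha1 (1.40) and lowest for Mlxipl (-3.44), Ppp1r3b (-2.90) and Tkfc (-2.85), the last an enzyme of fructose breakdown.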

How the data were processed

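Total RNA of 7 cell samples was hybridised to Affymetrix mouse genome arrays. The authors normalized the arrays by Robust Multiarray Analysis (RMA) and deposited log2 values of 45101 probe sets; the RMA version is not given in the sources used here. Probe sets were named by the platform annotation (34945 with 1 symbol, used here, and 932 with several, 9160 with none and 64 control probe sets, left out). Each of 18193 genes was read by the probe set with the highest mean, without a filter on dim ones.

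Differences between the groups came from limma 3.58.1 (R 4.3.3; lmFit, then eBayes, 1 mean for each group, 4 residual degrees of freedom, prior of 2.11 degrees of freedom and standard deviation 0.162), with Benjamini-Hochberg adjustment over all genes and a threshold of 0.05. The pHep array adds no degree of freedom. The fit was tested on simulated data. Paired forms were compared with scipy 1.17.1. Values on each array are given for paired forms and for members past the test with a difference of at least 1, and up to 3 rises and 3 falls are named among neighbouring genes. Pklr by its other probe sets was added after seeing the data. The members, lists and motifs were chosen with earlier results of these data known. There are no read counts behind array values, and precision is set by the number of arrays. Alternatives tried were other probe set rules, a filter at a log2 level of 6, other normalizations, other variance models and tests, at least 2-fold, the replicate number as a block, MEF replicates 2 to 4 averaged and each array left out.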

Additional observations from a re-analysis of the deposited data

Results flagged for a closer look

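On 1 array in each case, the level of 14 of the 46 members lay far from the other MEF arrays, as measured by the gap to the nearest array over the range of the 4 arrays (Dixon's test). Chance flags about 1 in 20 groups, and 23.5% of all genes were so marked. In 11 members the array was MEF replicate 1. It was high for Slc2a3 (0.895), Hk1 (0.870), Pfkm (0.867), Aldoa (0.834), Pfkfb2 (0.925), Pgam2 (0.860), Ldhb (0.906) and Pygb (0.883). It was low for Slc2a1 (0.867), Ldha (0.851) and Slc16a3 (0.881). The largest of these gaps in level were those of Slc2a3, at 9.87 against a mean of 8.01 on the other MEF arrays, and Pfkfb2, at 7.74 against 6.25. In 3 members the array was MEF replicate 2, low for Gckr (0.836) and Pygm (0.932) and high for Pfkfb4 (0.889), which read 8.92 against 8.35.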

How the results depend on the processing

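With other normalizations, a filter on dim genes and trend fitting, the counts of members higher and lower stayed within 1.5 times those reported. Leaving out 1 array at a time gave 9 to 21 higher and 5 to 12 lower members in iHepSCs against MEFs (15 and 7 with all arrays), 12 to 20 and 6 to 13 in pHeps (12 and 8), and 5 to 19 and 9 to 15 in iHepSCs against pHeps (9 and 12). The highest values are without MEF replicate 1, apart from which no left-out array raised a count above 1.5 times. No replicate left out turned the direction of a called member. In the balance of forms, 2 to 4 of 7 pairs were positive in iHepSCs (4 with all arrays), the lowest without iHepSC replicate 2.

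Replicate numbers are not said to pair the arrays, and same-numbered MEF and iHepSC arrays deviated from their group means with correlations of -0.22 and -0.21. With the replicate block, 3 members were higher and 5 lower in iHepSCs, 8 higher and 0 lower in pHeps (limma, 12 lower at an unadjusted p under 0.05), and 1 higher and 6 lower in iHepSCs against pHeps. Averaging MEF replicates 2 to 4 as 1 sample gave 6 higher in iHepSCs, 5 lower in pHeps and 4 higher in iHepSCs against pHeps. The methods' t-test after Benjamini-Hochberg gave 5 lower in pHeps, and 0 higher and 0 lower in iHepSCs against pHeps, where 6 and 8 had an unadjusted p under 0.05. These settings leave fewer degrees of freedom or borrow no spread across genes.

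Reversals were counted where a member passed the test with the reported setting, the alternative or both. On that count the direction turned in 3 genes, all in iHepSCs against MEFs. Changes of sign in members past the test in neither setting were not counted. Centring on Gapdh, which differed by -0.49 in iHepSCs, raised every difference between iHepSCs and MEFs. Slc2a3 was -0.41 (adjusted p = 0.329), by a dim probe set, without probe sets of suffix _x_at or _s_at. Pklr was 0.56 (adjusted p = 0.0163) as the mean of its probe sets, and 1.13 and 0.70 by its other probe sets. Ugp2 was 0.11 (adjusted p = 0.675) with arrays centred on Gapdh.

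Over all genes, 3310 were higher and 2446 lower in iHepSCs, against 5638 and 4514 without MEF replicate 1, 1973 and 1375 without iHepSC replicate 1, 1833 and 1299 without iHepSC replicate 2, 845 and 682 with the block, 1517 and 1184 with MEF replicates averaged, and 1965 and 1369 at 2-fold or more. In pHeps 2696 were higher and 2814 lower, against 4917 and 5743 without MEF replicate 1, 465 and 315 with the block, 1240 and 927 with MEF replicates averaged, 1525 and 1380 centred on Gapdh, and 1292 and 1355 by the methods' t-test, while 1496 were lower at 2-fold or more and 1843 without MEF replicate 3. In iHepSCs against pHeps 1685 were higher and 1435 lower, against 4628 and 3144 without MEF replicate 1, 909 and 878 or 990 and 940 without iHepSC replicate 1 or 2, 189 and 259 with the block, 693 and 780 with MEF replicates averaged and 311 and 118 by the methods' t-test. There 1096 were higher at 2-fold or more and 616 lower centred on Gapdh.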
